A study of Mus musculus with 3 samples.

Results

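The 10 genes described here encode 6 matrix metalloproteinases (MMPs: Mmp8, Mmp9, Mmp12, Mmp13, Mmp14 and Mmp19), 2 tissue inhibitors of metalloproteinases (TIMPs: Timp2 and Timp3) and 2 membrane sheddases of the ADAM family (Adam10 and Adam17). They were selected by gene symbol from the 55536 annotated genes of the tables, and each symbol matched 1 gene. The RNA came from macrophages grown from bone marrow of C57BL/6J mice and treated with lipid A, the Toll-like receptor 4 ligand of bacterial lipopolysaccharide, at 100 ng/ml for 60 min. The cytosolic fraction was taken, ribosomal RNA was depleted, and total RNA was sequenced from 1 µg in each of 3 libraries, here replicates 1, 2 and 3 as labelled. All 3 libraries share the strain, the treatment, the time and the fraction, and the labels give neither age nor sex. Untreated cells and nuclear RNA were not analysed here, so every value is a level in stimulated cytosol and no response to lipid A was measured. Biological replicates are numbered in the labels, but no label states whether different mice gave the marrow of each culture. P-values here therefore rest on the spread between these 3 libraries, and that spread may be technical.

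MMPs are zinc-dependent proteases that cleave collagens, elastin and other matrix proteins and also release or inactivate cytokines. They are made as inactive precursors in which a propeptide cysteine blocks the catalytic zinc, a mechanism known as the cysteine switch, and TIMPs inhibit the active enzymes by placing their first cysteine on the same zinc. ADAM10 and ADAM17 sit in the membrane and cut the outer parts of other membrane proteins free, and ADAM17 is known as the enzyme that releases tumour necrosis factor (TNF) from macrophages.

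The catalytic site is the part shared by the 8 proteases. In each, 3 histidines bind the zinc and 1 glutamate takes part in catalysis, within the pattern His-Glu-x-x-His-x-x-Gly-x-x-His. The 33 coding bases of this pattern are shown for the transcript of each gene that the annotation tags as principal, which for Mmp12 is not the most abundant one, taken from the GENCODE M21 transcripts (build GRCm38, mm10), 5′ to 3′ on the coding strand. Capitals mark the codons of the 3 histidines and the glutamate.
Mmp8: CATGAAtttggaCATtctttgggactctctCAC
Mmp9: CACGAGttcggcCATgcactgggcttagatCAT
Mmp12: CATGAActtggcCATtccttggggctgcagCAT
Mmp13: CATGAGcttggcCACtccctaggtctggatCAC
Mmp14: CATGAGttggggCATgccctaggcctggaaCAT
Mmp19: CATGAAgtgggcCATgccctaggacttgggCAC
Adam10: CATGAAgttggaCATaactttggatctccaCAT
Adam17: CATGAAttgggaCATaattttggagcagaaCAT

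The MMP windows lie at chr9:7563086-7563118 (Mmp8), chr2:164951133-164951165 (Mmp9), chr9:7352914-7352946 (Mmp12), chr9:7276573-7276605 (Mmp13), chr14:54437627-54437659 (Mmp14) and chr10:128795673-128795705 (Mmp19), all on the plus strand. Each is in exon 5 except that of Mmp9, which is in exon 8 of 13. The Adam17 window is in exon 11 of 19 at chr12:21336732-21336764 on the minus strand. The Adam10 window is split by an intron between exons 9 and 10 of 16, with its outer bases at chr9:70754296-70761585 on the plus strand. Both sheddases match each other at 26 of 33 bases, the highest count among the pairs, and the lowest count was 17 bases, between Mmp9 and Adam10, Mmp13 and Adam10, and Mmp13 and Adam17.

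The cysteine switch precedes the catalytic site in the MMPs, and its 12 coding bases are shown because they and the zinc site tell which transcripts encode both elements. Capitals mark the cysteine codon.
Mmp8: cctcgaTGTgga
Mmp9: ccacgcTGTggt
Mmp12: cctcgaTGTgga
Mmp13: ccaagaTGTgga
Mmp14: cctcgcTGTggt
Mmp19: ccccgtTGTggt

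The inhibitors begin, once the signal peptide is removed, with a Cys-x-Cys stretch whose first cysteine contacts the zinc. It is encoded in exon 1 of 5 in both genes, at chr11:118354998-118355012 on the minus strand for Timp2 and at chr10:86300923-86300937 on the plus strand for Timp3. Capitals mark the 2 cysteine codons.
Timp2: TGCagcTGCtccccg
Timp3: TGCacaTGCtctccc

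The libraries held 63944236, 71989793 and 69305836 expected counts over annotated genes (replicates 1, 2 and 3), and a count of 0 allows up to 3 counts, or 0.0469, 0.0417 and 0.0433 CPM (counts scaled to library size), for counting error only. TPM values are transcript abundances scaled per length over all RNA of a library, and the 7SL RNAs took 57.1%, 69.6% and 62.2% of it. Nuclear-encoded protein-coding genes took 32.7%, 21.6% and 23.6%, and the median of the 9123 protein-coding genes with a mean of at least 1 TPM was 9.08, 5.76 and 6.86 TPM. A level is therefore also given relative to that median gene of the same library, in times or on the log2 scale. Of 12 macrophage markers, 11 reached 1 TPM and 10 were called above the median gene, beside 26.3% of all tested genes. Lyz2 (lysozyme) led at 5032 ± 2089 TPM (SD, n = 3), while Cd163 stayed under 1 TPM. In these bulk samples, fewer cells with a message and less of it per cell cannot be told apart.

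By mean TPM, Timp2 and Mmp12 were high, Adam17, Adam10 and Mmp13 intermediate, Mmp14, Mmp8 and Mmp19 near or under the median gene, and Mmp9 and Timp3 under 1 TPM. Levels were tested against the median gene with limma's treat on log2(TPM + 0.1), with a 2-fold band and Benjamini-Hochberg adjustment over the 9123 genes. limma draws the spread of each gene toward a trend over all tested genes, so small p-values also rest on the spread of other genes. Of the 10 members, 8 passed the 1 TPM filter. Among these, 4 were called above (Timp2, Mmp12, Adam17 and Adam10), beside 26.3% of all tested genes. None was called below by limma, beside 24.5%, also at an unadjusted p under 0.05, and no other tool was run on levels. The 2 that failed the filter were Mmp9 and Timp3. A log2 difference with this pseudocount understates that of low genes.

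**Figure D1:**
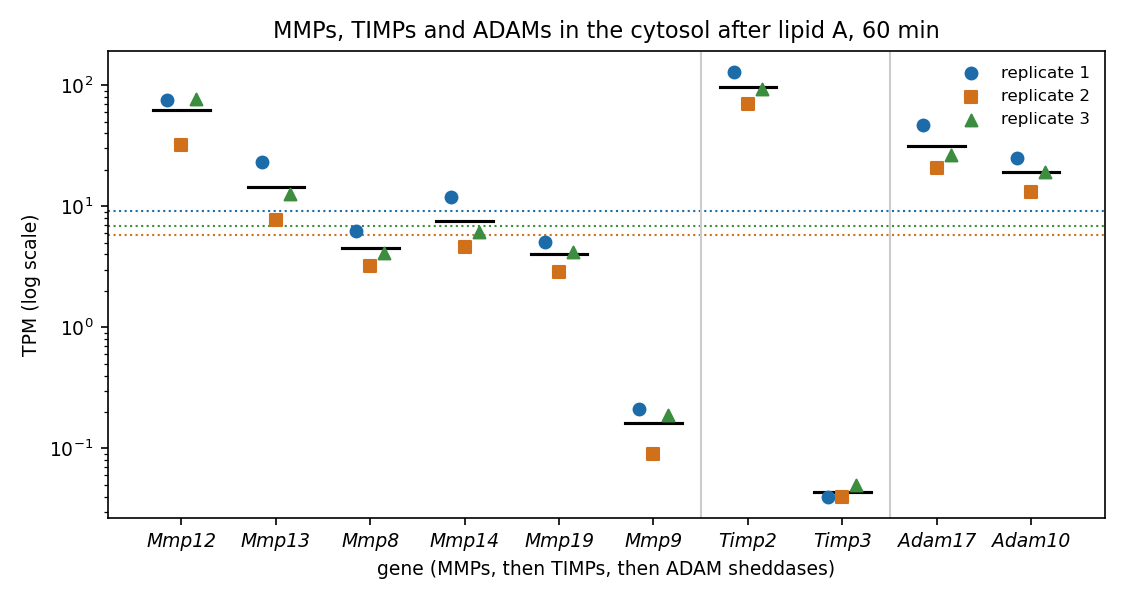
TPM on a log scale for each gene (MMPs, TIMPs, ADAM sheddases) in the 3 libraries, with black bars at the mean over libraries and dotted lines at the median tested gene of each library in the library's colour. Timp2 and Mmp12 lie above all 3 dotted lines, Mmp8 and Mmp19 lie below the line of their own library, and Mmp9 and Timp3 lie under 1 TPM.

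Among the MMPs, Mmp12 (macrophage elastase, which cleaves elastin) was the most abundant. Mmp12 (ENSMUSG00000049723.14, chr9:7344381-7369499, plus strand) stood at 76.1, 32.2 and 77.4 TPM in replicates 1, 2 and 3 (61.9 ± 25.7, SD, n = 3), from 10064, 6948 and 14235 counts. In TPM, replicates 1 and 3 were close to each other and replicate 2 was low. It was 8.38, 5.59 and 11.3 times the median gene, a log2 level of 3.00 ± 0.18 (SE, limma, adjusted p = 4.8e-05). Its biological coefficient of variation (BCV), edgeR's estimate of the relative spread between libraries after counting noise, was 0.222, higher than in 78.5% of 13026 genes, whose median was 0.122. Without replicate 2 the BCV was 0.135.

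Mmp13 (collagenase-3, which cuts fibrillar collagen; ENSMUSG00000050578.10, chr9:7272514-7283331, plus strand) stood at 23.3, 7.63 and 12.7 TPM (14.5 ± 7.99, SD, n = 3) from 5183, 2789 and 4007 counts. Replicate 1 was the highest library and replicate 2 again the lowest, and all 3 were above their own median gene, at 2.56, 1.32 and 1.85 times. The log2 level of 0.88 ± 0.17 did not clear the 2-fold band (limma, adjusted p = 1). Without the 1 TPM filter, which lowers the reference, it was 2.44 and was called above (limma, adjusted p = 2.1e-07). Its BCV was 0.214, against 0.136 without replicate 1 and 0.139 without replicate 2.

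Mmp14 (membrane-type 1 MMP, a membrane-anchored collagenase that also activates pro-MMP2 together with TIMP2; ENSMUSG00000000957.11, chr14:54431612-54445364, plus strand) stood at 11.98, 4.57 and 6.10 TPM (7.55 ± 3.91, SD, n = 3) from 2451, 1560 and 1768 counts. It was above the median gene in replicate 1 and below it in replicates 2 and 3, at 1.32, 0.793 and 0.889 times, with a log2 level of -0.03 ± 0.14 (limma, adjusted p = 1). This level was 0.11 without replicate 2 and 0.03 without replicate 3, so its sign was not settled. The BCV was 0.180, and 0.101 without replicate 1.

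Mmp8 (neutrophil collagenase; ENSMUSG00000005800.3, chr9:7558456-7568485, plus strand) stood at 6.25, 3.23 and 4.08 TPM (4.52 ± 1.56, SD, n = 3) from 1250, 1062 and 1158 counts. Mmp19 (a secreted MMP; ENSMUSG00000025355.7, chr10:128790910-128800824, plus strand) stood at 5.03, 2.87 and 4.17 TPM (4.02 ± 1.09, SD, n = 3) from 1378, 1233 and 1579 counts. Both were under the median gene in all 3 libraries and within the 2-fold band, at log2 levels of -0.69 ± 0.07 and -0.84 ± 0.07 (limma, adjusted p = 1 for each). With a 1.5-fold band, Mmp19 was called below (limma, adjusted p = 0.0085), beside 3070 of all 9123 genes tested. Their BCVs, 0.108 and 0.106, were under the median of all genes.

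Mmp9 (gelatinase B, which degrades denatured and basement membrane collagen; ENSMUSG00000017737.2, chr2:164940780-164955850, plus strand) was listed at 0.21, 0.09 and 0.19 TPM, from 56, 39 and 74 counts. These counts are above the 3 that a count of 0 allows in every library, but the level was too low for the test. In the order of levels, Mmp9 stood apart from the next higher gene, Mmp19, with no overlap in TPM between libraries and a log2 difference of 3.97 ± 0.08 (SD, n = 3). Mmp8 exceeded Mmp9 by 4.11 ± 0.25 (log2, SD, n = 3), or 29.8, 35.9 and 21.5 times, and in 3 of 3 libraries. With a pseudocount of 1 this difference was 2.21.

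Some messages of the neutrophil list were above Mmp8 and Mmp9, and most were under 1 TPM. Of 16 neutrophil markers, 5 reached 1 TPM. None was called above the median gene, beside 26.3% of all tested genes, 2 were called below, beside 24.5%, and 3 were not called. The summed level of the 16 was 54.2, 40.5 and 40.7 TPM. S100a9 and S100a8 (calprotectin subunits, also made by monocytes) stood at 15.9 ± 1.96 and 10.1 ± 1.33 TPM, Csf3r (the G-CSF receptor) at 13.7 ± 4.21 and Ngp (a granule protein) at 1.92 ± 0.307 (SD, n = 3). S100a9, S100a8 and Csf3r were above the median gene in every library, S100a9 at 1.96, 2.76 and 2.03 times. Lcn2, called below as Ngp was, stood at 1.83 ± 0.831 TPM (SD, n = 3), and Prtn3 and Ctsg at 0.503 and 0.0567 TPM on average. The granule genes Ltf, Elane, Camp and Mpo stood at 0.56, 0.16, 0.153 and 0.113 TPM on average, and Ly6g was at 0 in replicates 1 and 2. The part of such cells in the levels of Mmp8 and Mmp9 was not tested.

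Mmp13, Mmp12 and Mmp8 belong to a cluster of 10 MMP genes within 427 kb of chromosome 9. Of these 10, 4 reached 1 TPM: Mmp13, Mmp12, Mmp8 and Mmp27. Mmp27 stood at 21.4, 11.8 and 14.8 TPM (16.0 ± 4.91, SD, n = 3), beside a mean of 14.5 for Mmp13, and was not called (limma, adjusted p = 0.11). Mmp10 (stromelysin-2), which lies between Mmp12 and Mmp8, had 37, 35 and 55 counts. Mmp3 (stromelysin-1) had 5, 2 and 0 counts, Mmp1a and Mmp1b had 1 count each in replicate 1 and 0 in the others, Mmp7 had 1 count in replicate 2, and Mmp20 had none. The 4 expressed genes thus lay as 2 neighbouring pairs, Mmp13 with Mmp12 and Mmp8 with Mmp27.

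**Figure D2:**
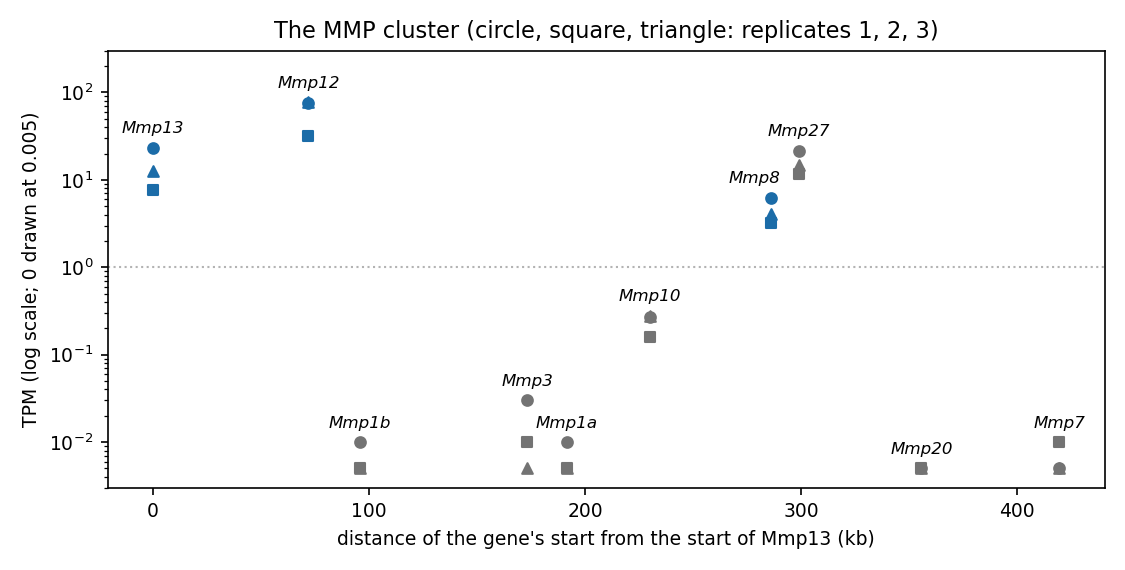
TPM on a log scale of the 10 MMP genes of the chromosome 9 cluster against the distance of each gene's start from that of Mmp13 in kb, with circles, squares and triangles for replicates 1, 2 and 3, members in blue, other genes in grey, values of 0 drawn at 0.005 and a dotted line at 1 TPM. Mmp13, Mmp12, Mmp8 and Mmp27 lie above 1 TPM in every library, and the 6 others lie below it.

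Over the whole family, 17 other MMP genes were counted and 16 were under 1 TPM, 3 of them (Mmp16, Mmp20 and Mmp21) at 0 counts throughout. After Mmp27, the highest were Mmp2 (gelatinase A) at 0.297 ± 0.134 TPM, Mmp10 at 0.237 ± 0.0666 and Mmp25 (a membrane-anchored MMP of leukocytes) at 0.143 ± 0.0252 (SD, n = 3). Their summed level was 22.7, 12.5 and 15.7 TPM, against 123, 50.6 and 105 for the 6 MMP members. Within the members, Mmp13 was 0.306, 0.237 and 0.164 times Mmp12 (log2 difference -2.12 ± 0.45, SD, n = 3), and Mmp14 was 2.38, 1.59 and 1.46 times Mmp19 (0.81 ± 0.37).

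Timp2 (ENSMUSG00000017466.9, chr11:118301069-118355740, minus strand), which inhibits most MMPs and bridges pro-MMP2 to MMP14, was the highest of the 10 genes. It stood at 128, 69.7 and 92.8 TPM (97.0 ± 29.6, SD, n = 3), from 38730, 36161 and 41430 counts. Replicate 1 was high and replicate 2 low in TPM, while relative to the median gene the libraries were close, at 14.2, 12.1 and 13.5 times. The log2 level was 3.71 ± 0.08 (limma, adjusted p = 3.2e-07), and the BCV of 0.108 was under the median gene's.

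Timp3 (ENSMUSG00000020044.13, chr10:86300372-86349506, plus strand), the matrix-bound TIMP that also inhibits ADAM17, was near the limit. It had 13, 26 and 29 counts, or 0.203, 0.361 and 0.418 CPM, and 0.04, 0.04 and 0.05 TPM. The counts were above the 3 that a count of 0 allows, and replicate 1 was the lowest. Timp2 exceeded Timp3 by 9.36 ± 0.45 (log2, SD, n = 3) in 3 of 3 libraries, and by 6.51 with a pseudocount of 1. As TPM is deposited to 2 decimals, ratios that involve Timp3 or Mmp9 are coarse.

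The other inhibitors were low as well. Timp1, the secreted TIMP often induced in inflammation, was listed at 0.24, 0.14 and 0.19 TPM, Reck (a membrane-anchored inhibitor of MMPs) at 0.06, 0.04 and 0.07, and Timp4 and A2m (alpha-2-macroglobulin) had 0 counts in all 3 libraries. None of these 4 reached the 1 TPM needed for the test. The summed TIMP message was 1.05, 1.38 and 0.888 times the summed message of the 6 MMPs, so the larger sum differed between libraries. With kallisto's TPM, an alternative chosen after seeing the data, the ratios were 1.35, 1.84 and 1.19, with the TIMP sum larger in all 3. Timp2 exceeded Mmp14, its partner on the membrane, by 10.7, 15.2 and 15.2 times (log2 difference 3.74 ± 0.28, SD, n = 3).

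Both sheddases were called above the median gene. Adam17 (the TNF-converting enzyme; ENSMUSG00000052593.16, chr12:21323509-21373632, minus strand) stood at 46.6, 20.6 and 26.3 TPM (31.2 ± 13.7, SD, n = 3) from 17300, 12644 and 13957 counts. Replicate 1 was the highest, and the gene was 5.13, 3.57 and 3.84 times the median gene, with a log2 level of 2.03 ± 0.11 (limma, adjusted p = 0.00011). Its BCV was 0.147. When the median was taken over genes of at least 5 TPM, the level was 1.10 and was not called (limma, adjusted p = 0.47).

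Adam10 (which sheds Notch receptors, CX3CL1 and CXCL16 among others; ENSMUSG00000054693.14, chr9:70678997-70780229, plus strand) stood at 24.9, 13.2 and 19.1 TPM (19.1 ± 5.85, SD, n = 3) from 9829, 8530 and 10750 counts. It was 2.74, 2.29 and 2.79 times the median gene, with replicate 2 a little below the others, and its log2 level was 1.36 ± 0.08 (limma, adjusted p = 0.0031). With kallisto's TPM the level was 0.96 and the call was lost (limma, adjusted p = 1), as it was with genes of at least 5 TPM, at 0.44. Adam17 exceeded Adam10 within every library, by 1.87, 1.56 and 1.38 times (log2 difference 0.67 ± 0.22, SD, n = 3), although their TPM ranges across libraries overlapped.

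The 6 differences between members given for Timp2 and Mmp14, Timp2 and Timp3, Mmp14 and Mmp19, Mmp13 and Mmp12, Mmp8 and Mmp9, and Adam17 and Adam10 each had the same sign in 3 of 3 libraries. The exact two-sided sign-flip permutation test gave p = 0.25 for each, also after adjustment over the 6 pairs, which is the smallest value that 3 libraries allow. In the full order (Timp2, Mmp12, Adam17, Adam10, Mmp13, Mmp14, Mmp8, Mmp19, Mmp9, Timp3), neighbours overlapped in TPM across libraries as far down as Mmp8 and Mmp19, while Mmp19 and Mmp9, and Mmp9 and Timp3, did not. Within libraries, the first of each neighbouring pair was the higher in all 3, except that Mmp8 exceeded Mmp19 in only 2 (0.15 ± 0.17 on the log2 scale, SD, n = 3). The order was set by mean TPM over these same 3 libraries, so this agreement is partly built in and is no separate support for it.

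Proteins that mature or guide the sheddases were counted as a list of 14, of which 8 reached 1 TPM. Of these, 3 were called above the median gene and 1 below (Tspan5), beside 26.3% and 24.5% of all tested genes, and 4 were not called. Furin, the convertase that removes the propeptide of ADAM10, ADAM17 and MMP14, stood at 38.9, 22.3 and 25.9 TPM (29.0 ± 8.75, SD, n = 3; limma, adjusted p = 1.2e-05). Tspan14, a tetraspanin that accompanies ADAM10 to the surface, stood at 18.0 ± 5.96 TPM (limma, adjusted p = 0.0089) and Pacs2, a sorting protein for ADAM17, at 16.6 ± 3.40 TPM (adjusted p = 0.0195). Rhbdf2 (iRhom2), the carrier that ADAM17 needs in immune cells, stood at 24.0, 13.0 and 11.9 TPM and was not called (limma, adjusted p = 0.33). Its relative Rhbdf1 was listed at 0.45, 0.24 and 0.39 TPM, a gene named after its values were seen.

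Many substrates of the 2 sheddases had abundant messages. Of 27, 19 reached 1 TPM and were tested. Of these, 14 were called above the median gene, beside 26.3% of all tested genes, and 1 below (Areg, an EGF receptor ligand), beside 24.5%. The median over all 27 was 20.5 TPM, against 7.24 over all tested genes, which leave out those under 1 TPM. Tnf stood at 2433, 1389 and 1101 TPM, or 268, 241 and 160 times the median gene. Replicate 1 was the highest in TPM, and relative to the median gene replicate 3 was the one apart. Trem2 (a lipid-sensing receptor) stood at 299.6 ± 79.3 TPM, Csf1r (the receptor for the macrophage growth factor) at 241 ± 85.8 and Icam1 (an adhesion molecule) at 160 ± 82.7 (SD, n = 3). The list was drawn up with other results of these libraries known, so its level is a description only.

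The list of other catalytic ADAMs held 8 genes, of which 5 reached 1 TPM. Of these, 3 were called above the median gene and 1 below (Adam33), beside 26.3% and 24.5% of all tested genes, and 1 was not called. Adam8, a leukocyte ADAM, stood at 91.4, 59.1 and 112 TPM (87.6 ± 26.8, SD, n = 3), higher than Adam17 and Adam10 in each library. Adam15 and Adam9 stood at 45.2 ± 12.4 and 30.1 ± 8.60 TPM and Adam19 at 4.90 ± 2.63 (SD, n = 3). Adam28 and Adamdec1 had 0 counts in all libraries. Among 12 matrix proteins, 2 reached 1 TPM: Spp1 (osteopontin, which several MMPs cleave) was called above at 1170 ± 295 TPM, and Lamc1 (a laminin chain) was not called at 5.57 ± 0.984. Vcan (versican) and Fn1 (fibronectin) followed at 0.213 and 0.167 TPM.

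**Figure D3:**
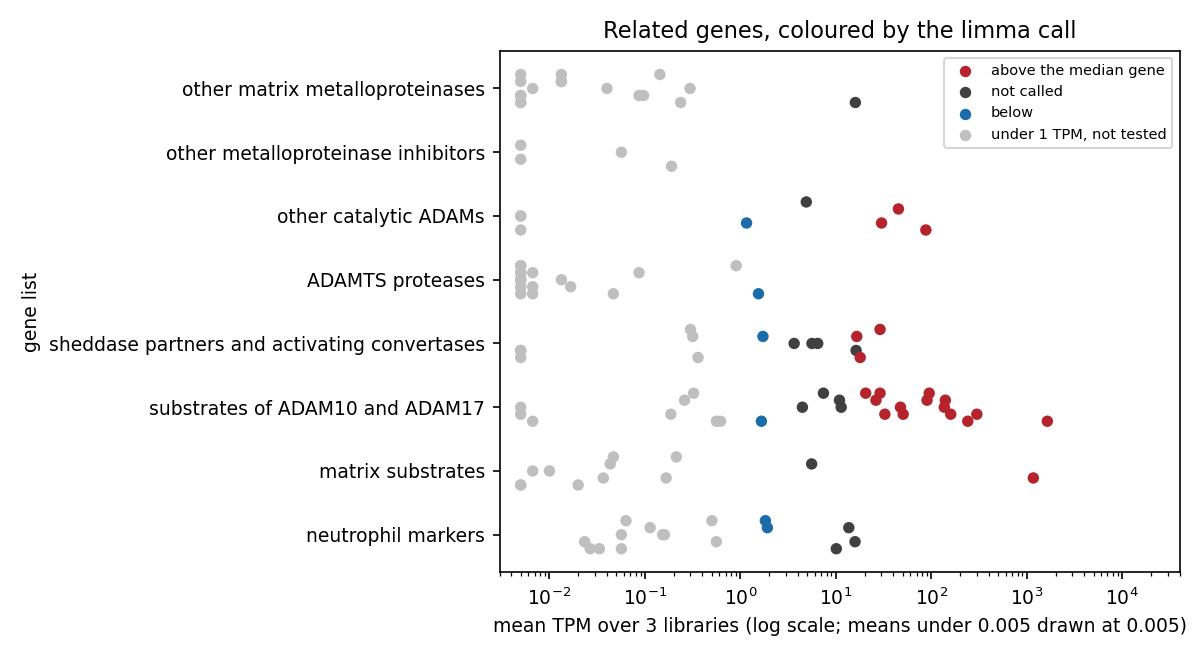
Mean TPM over the 3 libraries on a log scale for the genes of 8 related lists, 1 point a gene, coloured by the limma call against the median gene (red above, black not called, blue below, grey not tested), with means under 0.005 drawn at 0.005 and vertical offsets only to separate points. The substrates of ADAM10 and ADAM17 hold 14 red points among the 19 tested of 27, beside 26.3% of all tested genes called above. Grey points, not tested, are 16 of the 17 other MMPs and all 4 other inhibitors.

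The transcript tables give the percent of a gene's TPM assigned to each annotated transcript. For 5 of the 10 genes, 1 transcript held nearly all of the message by these percents. Mmp8 and Mmp13 have 1 annotated transcript each, so the 100% of Mmp8-201 and Mmp13-201 was fixed by the annotation. Mmp9-201 held 100%, from 56, 39 and 74 counts, and 100%, 84.7% and 100% with kallisto's values. Adam10-201 held 99.7% ± 0.04 and Timp2-201 held 97.9% ± 2.91 (SD, n = 3). Adam17-201 held 90.8%, 92.3% and 89.9% and Mmp14-201 held 90.2%, 93.4% and 89.8%. Transcripts annotated for nonsense-mediated decay (NMD), the pathway that destroys messages with an early stop codon, held 7.08% ± 0.604 of Adam17 and 2.57% ± 0.291 of Mmp14 (SD, n = 3). Retained-intron transcripts held 1.81% ± 0.939 and 4.77% ± 2.12 of these 2 genes.

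Mmp12 was divided among 3 transcripts, and the one with the largest share in the first transcript table does not encode the protease. Mmp12-204, annotated for NMD, held 43.2%, 42.5% and 39.4% (41.7% ± 2.00, SD, n = 3). Mmp12-203 held 26.1%, 30.3% and 30.4% (28.9% ± 2.44) and Mmp12-202 held 29.2%, 26.2% and 28.7% (28.1% ± 1.60). Mmp12-201, the longest protein-coding one at 3607 bases and 473 codons, held 0.74%, 0.80% and 0.84%. Transcripts that encode the zinc site together held 56.0%, 57.3% and 60.0% of Mmp12 (57.8% ± 2.00). Most of this lay in Mmp12-203 and Mmp12-202, which have 403 and 339 codons, fewer than the 473 of Mmp12-201. With kallisto's values Mmp12-203 led at 39.6%, Mmp12-204 held 31.5%, and the zinc-site transcripts held 67.5%, so which transcript led depended on the table.

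Mmp12-204 holds 58 bases that Mmp12-201 lacks, at the start of exon 2 of 10 (chr9:7348527-7348584, plus strand), shown here in capitals with 15 bases of the spliced message on each side, since this stretch sets the reading frame of the transcript.
Mmp12-204: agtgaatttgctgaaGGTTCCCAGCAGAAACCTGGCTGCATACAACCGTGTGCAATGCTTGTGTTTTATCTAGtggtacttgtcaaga

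The 58 bases leave a remainder of 1 when read in codons, and the annotated frame ends at a stop codon (TGA) at codon 65, inside exon 2, before the cysteine switch and the zinc site. The transcript shares 2002 bases with Mmp12-201, which ends 1573 bases further downstream, so most of its letters do not tell it from the coding transcripts. Mmp12-203 starts from an exon upstream of those of Mmp12-201, has 403 codons and encodes both the switch and the zinc site. Its annotated coding part begins in its exon 3, while that of Mmp12-201 begins in exon 1, so it lacks the first codons of Mmp12-201. Mmp12-202 keeps exons 1 to 5, including the zinc site, then joins a distal last exon at chr9:7369165-7369499 and has 339 codons. That exon lies within the span of Mmp1b on the opposite strand, which had 1, 0 and 0 counts.

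**Figure D4:**
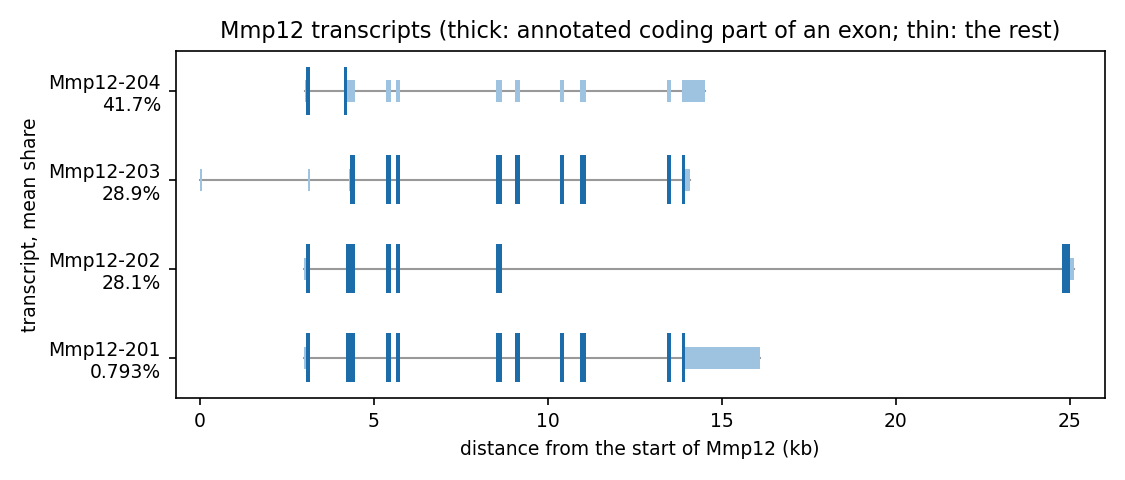
Exons of 4 Mmp12 transcripts against the distance from the start of the gene in kb, with thick dark blocks for the annotated coding part, thin light blocks for the rest of each exon and the mean share of the gene's TPM under each name. The coding part of Mmp12-204 ends in exon 2, while the others run through the exon at 8.51 kb that encodes the zinc site.

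Mmp19 was divided between 2 transcripts that both encode the switch and the zinc site. Mmp19-201 (527 codons) held 86.2%, 74.5% and 79.1%, and Mmp19-203 (455 codons) held the other 13.8%, 25.5% and 20.9%. The share of Mmp19-203 was highest in replicate 2 and lowest in replicate 1, and its mean was 20.0% ± 5.88 (SD, n = 3), against 29.7% with kallisto's values. Timp2-201 held 94.6%, 100% and 99.2%, but 66.6%, 66.9% and 67.2% with kallisto's values, which placed the rest in Timp2-202, a 718-base transcript with another first exon. Timp3-201 held 70.2%, 100% and 100%, from the 13, 26 and 29 counts of the gene, and 25.2%, 73.2% and 86.8% with kallisto's values.

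**Figure D5:**
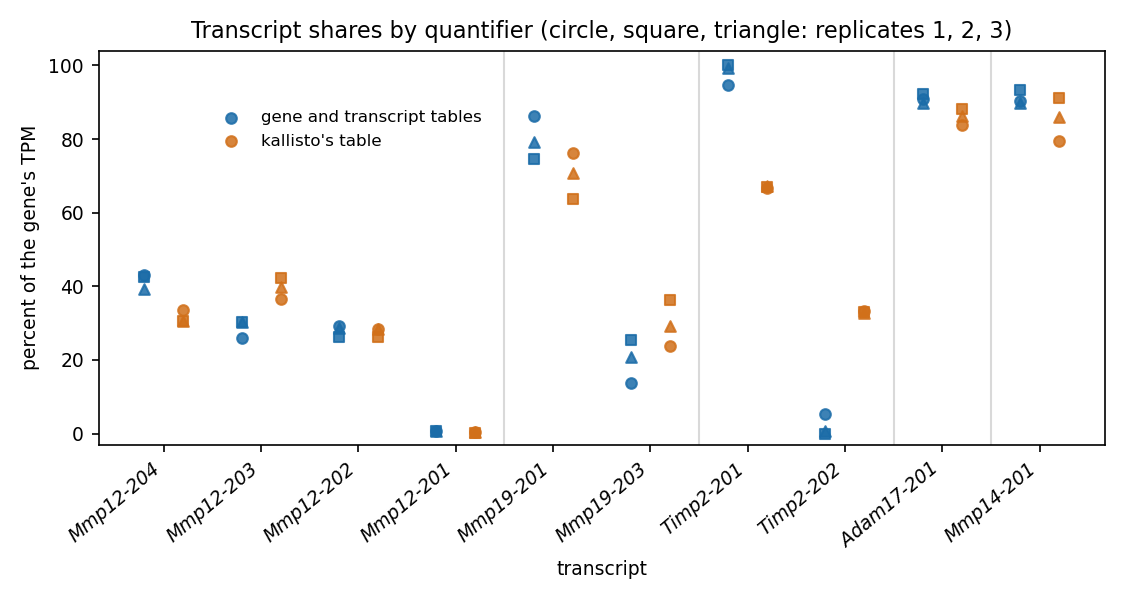
Percent of the gene's TPM in each named transcript, by the first transcript table (blue) and by kallisto's table (orange), with circles, squares and triangles for replicates 1, 2 and 3. Mmp12-204 lies at 39.4% to 43.2% in blue and 30.5% to 33.5% in orange, and Timp2-202 lies at 0% to 5.39% in blue and 32.8% to 33.4% in orange.

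Several members overlap other genes, and no source used here says whether reads were assigned by strand. Mmp19 shares its span with Tmem198b on the opposite strand (597, 597 and 708 counts), and Adam17 with Iah1 on the opposite strand (1103, 1022 and 946 counts). Timp2 holds Cep295nl on the same strand (30, 24 and 39 counts), and Timp3 overlaps Syn3 on the opposite strand (0, 2 and 2 counts). These partners had fewer counts than the member in every case.

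The spread between libraries was uneven over the members. Relative to the median gene, replicate 2 was the lowest library for each of the 8 tested members, while replicate 1 was the highest for 5 and replicate 3 for Mmp12, Adam10 and Mmp19. The BCV was above the median of all genes for 6 of the 10 (Mmp12, Mmp13, Mmp14, Adam17, Mmp9 and Timp3), and the members' median was 0.164. As many of all genes lie above their median as below it, so this count is near the share over all genes. The BCVs of Mmp9 and Timp3, 0.284 and 0.282, rest on the few counts given above. They lay near the values that edgeR fits for genes of like abundance, 0.291 and 0.275.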

How the data were processed

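The 3 libraries of ribosome-depleted total RNA form 1 group. Per the file headers, the authors' gene and transcript tables give an expected count and TPM, and for a transcript its percent of the TPM of its gene. Their column names are those of RSEM. Values called kallisto's come from another deposited transcript table of estimated counts and TPM, whose column names are those of kallisto. Per the deposited description files, reads were assigned to GENCODE M21 on mm10. The versions of the aligner and the quantifiers were not given in the sources used. Features that are not annotated genes held 0.260%, 0.0933% and 0.0577% of the counts in replicates 1, 2 and 3 and were left out.

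The members and gene lists were chosen with earlier results of these data known. With 1 group, no comparison between conditions was made. Levels were values of log2(TPM + 0.1), centred in each library on the median of protein-coding genes with a mean of at least 1 TPM, fitted in limma 3.58.1 (R 4.3.3) with an intercept only, treat with a 2-fold band, a trended prior and Benjamini-Hochberg adjustment over all genes tested at 0.05. BCVs are tagwise values of edgeR 4.0.16 on expected counts rounded to whole numbers, with TMM scaling and the filterByExpr filter. The level test was tested on simulated data. Differences between members were taken within each library and tested by an exact sign-flip permutation test. Python 3.11.15 with pandas 2.3.3 did the rest.

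Named genes are the 10 members and the 4 highest by mean TPM of each list. The lists are other MMPs, other inhibitors, other catalytic ADAMs, ADAMTS proteases, sheddase partners and convertases, substrates of ADAM10 and ADAM17, matrix substrates, and markers of neutrophils, macrophages, stroma and endothelium, dendritic cells, and T, B, erythroid and mast cells. Named outside this rule, after their values were seen, were genes that overlap or lie beside a member, genes with 0 counts and the single genes called below in a list. So were Cd163, Rhbdf1, Ly6g, Lcn2, Prtn3, Ctsg and the granule genes given beside Mmp8. Named transcripts are those with the highest mean share of a member or at least 10%, and those of Timp2 and Mmp12 given for contrast. Alternatives were kallisto's values, other scalings, pseudocounts, filters and bands, DESeq2 1.42.0 for size factors and dispersion, and leaving out each library. Sequences are from the GENCODE M21 transcripts.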

Additional observations from a re-analysis of the deposited data

How the results depend on the processing

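The calls of Timp2 and Mmp12 above the median gene held under every alternative run (adjusted p from 2.8e-13 to 1e-05 and from 6.5e-11 to 0.0025, limma), while those of Adam17 and Adam10 ranged from 5e-11 to 0.47 and from 6.5e-11 to 1. Leaving out 1 library in turn kept 4 members above and 0 below, with 2329 to 2378 genes above and 2106 to 2195 below in all, against 2403 and 2236. Without the 1 TPM filter, where the median gene is lower, 5403 genes were above and 5929 below, 6 members were above (Mmp13 and Mmp14 joined the 4) and 2 were below (Mmp9 and Timp3). With genes of at least 5 TPM, 1254 were above and 491 below, and 2 members were above. The totals tested without the filter and with genes of at least 5 TPM are not given here. The member counts of those runs therefore have no share over all genes beside them and are not read as a result about the members. With kallisto's TPM, 7720 genes were tested, of which 1862 (24.1%) were above and 1427 (18.5%) below, and 3 members were above. In the main run the shares were 26.3% and 24.5% of 9123 genes. The number of genes tested also changed with the filters, so counts under different filters are not shares of the same set. With a 1.5-fold band, 1 member was below (Mmp19), beside 3070 of all 9123 genes tested. The sign of a level against the median gene turned for Mmp13 with genes of at least 5 TPM (-0.050), for Mmp8 (0.88), Mmp19 (0.73) and Mmp14 (1.54, adjusted p = 0.00052, limma) with no filter, and for Mmp14 with TPM rescaled to nuclear-encoded coding genes (0.31), without replicate 2 (0.11) and without replicate 3 (0.03), against -0.25 without replicate 1. The 6 differences between members kept their direction under every alternative run. Mean TPM was lower in kallisto's table for each member, for example 57.1 for Timp2 and 28.0 for Mmp12. Nuclear-encoded coding messages as a whole made up less of kallisto's TPM, at 11.4%, 10.9% and 12.2% in replicates 1, 2 and 3. In the main run the part of the same genes was 32.7%, 21.6% and 23.6%. Lower TPM was thus not particular to the members. Against the median gene of the same table, Timp2 stood at 3.72 (log2), beside 3.71 in the main run. The other tested members were lower, for example Mmp12 at 2.61 beside 3.00. The share of Mmp12-204 was 31.5% with kallisto's values, below the 39.6% of Mmp12-203, and 40.9% to 42.8% with 1 library left out. The BCV of Timp3 was 0.504 with DESeq2's dispersion. The cause of these shifts was not tested. Pairing between groups does not arise, since the series holds 1 group. Depth limits Mmp9 and Timp3, whose counts are few.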

Other observations

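The ADAMTS proteases, secreted relatives of the ADAMs that act on proteoglycans and procollagen, were nearly absent. Of 19, only Adamts1 reached 1 TPM, at 2.02, 0.67 and 1.95 TPM, and it was called below the median gene (limma, adjusted p = 0.0011). Adamts10, Adamts4 and Adamts6 followed at 0.903, 0.0867 and 0.0467 TPM on average, and 5 had 0 counts in all 3 libraries.

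Most markers of cells other than macrophages and neutrophils were under 1 TPM. Of 12 stroma and endothelium markers, 2 reached 1 TPM: Vwf (von Willebrand factor) stood at 9.18 ± 3.30 TPM, or 1.41, 1.09 and 1.24 times the median gene, and was not called, and Kdr (a VEGF receptor) stood at 2.28 ± 1.05 and was called below (SD, n = 3). Pecam1 and Cdh5 of the same list stood at 0.177 and 0.123 TPM, and the list summed to 16.7, 8.20 and 10.9 TPM. Of 6 dendritic cell markers, Batf3 alone reached 1 TPM, at 1.25 ± 0.336, and was called below, with Ccr7, Siglech and Xcr1 at 0.77, 0.267 and 0.203. None of 10 markers of T, B, erythroid and mast cells reached 1 TPM, the highest being Kit at 0.87, 0.20 and 0.63, followed by Cpa3, Klf1 and Cd3d at 0.0333, 0.020 and 0.010 on average, and 3 had 0 counts. Among the macrophage markers, Cd68, Cd14 and Csf1r followed Lyz2 at 693 ± 143, 485 ± 77.3 and 241 ± 85.8 TPM (SD, n = 3), and Marco, a scavenger receptor, was the 1 called below.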
